A study of Mus musculus with 2 samples.

Results

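The 37 genes described here are the core enzymes of glycolysis and a set of genes that cells switch on when oxygen is short. They were chosen by name with earlier results of these data known, so counts set against all genes are descriptions. All 37 were listed in both libraries of the study, which together shared 27995 genes. The group comprised 16 glycolytic enzymes, 3 regulators of glycolytic flux, 3 transporters of glucose and lactate, 3 genes of the oxygen sensor itself, 4 mitochondrial genes, 3 secreted or surface genes, 3 genes of collagen hydroxylation and protein folding, and 2 stress response genes. Levels are given as CPM, UMIs of a gene per 1000000 UMIs of the library or cell class. At 10 CPM or more in at least 1 library, 33 of the 37 entered the counts of tested genes, although no statistical test was possible. Aldoc, Pfkfb4, Car9 and Ankrd37 stayed below that level in both.

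The cells were stromal vascular cells of wild-type C57BL/6N mice aged 8 to 12 weeks by the labels (the study's methods give a narrower range), taken from pooled inguinal white adipose tissue (iWAT) or pooled interscapular brown adipose tissue (iBAT) and grown in high-glucose medium to 80% confluency. In either depot part of the cultures stayed untreated, others were given 5.5 nM of FGF1, of FGF2 or of FGF8 over 48 h, and the cells of these 4 treatments were merged before sequencing. One whole-transcriptome library was prepared per depot with the BD Rhapsody microwell system, in which transcripts are tagged by cell and by molecule, so that each counted molecular tag (UMI) stands for 1 captured transcript. The files used here carry no treatment per cell, so each depot is a single sample and nothing can be said about an FGF. With 1 library per depot no difference has a replicate check, no test was made, and intervals cover counting error only.

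In iWAT 503611913 UMIs were counted over 29962 barcodes, and in iBAT 815235820 UMIs over 28636. The libraries shared 8 barcode numbers. After the cell filter, 29744 and 28215 cells remained. Of these, 88.6% and 98.4% had UMIs of at least 5 of 10 mesenchymal markers. The values below refer to Pdgfra-positive cells without markers of another class, called stromal cells here, which numbered 15885 in iWAT and 23201 in iBAT, with a median of 18023 and 27684 UMIs per cell. Pdgfra itself stood at 146 CPM in iWAT and 292 in iBAT stromal cells. The female transcript Xist was at 329 CPM in iWAT and 0.0543 in iBAT, and the Y-linked Ddx3y was at 1.15 and 81.0, so depot, sex of the mice, library and mix of treated cells cannot be told apart in any comparison of the depots.

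Hypoxia-inducible factors are pairs of an oxygen-labile alpha subunit, such as Hif1a, and the stable subunit Arnt. When oxygen is plentiful, prolyl hydroxylases mark the alpha subunit for destruction through the Vhl ubiquitin ligase. When oxygen is short, the factor persists and binds DNA at short motifs such as ACGTG in promoters and enhancers. From there it raises glycolytic enzymes, glucose and lactate transporters, angiogenic factors and genes that lower mitochondrial activity. In adipose tissue this response is best known from expanding white fat, while brown fat is known for its high glucose uptake and oxygen use.

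Transcripts of the group were less abundant in the iBAT library. Of the 33 genes tested, 31 had the lower level in iBAT, against 43.2% of all 8959 genes tested, and 14 were lower by 2-fold or more, against 4.41%. Of the 14, Egln3, Pfkfb3 and Ndufa4l2 were under 10 CPM in iBAT and entered through iWAT. None was 2-fold or more higher in iBAT, against 3.66% of all genes. The median log2 ratio of iBAT over iWAT was -0.76 for the tested genes of the group and 0.05 for all genes tested. Over all 37 genes, 35 had the lower value in iBAT, 17 by 2-fold or more, with a median log2 ratio of -0.87. Of these 17, Aldoc, Car9 and Ankrd37 were under 10 CPM in both libraries. No share of all genes was taken without that limit. The counting interval of the ratio lay wholly below equality for 34 of the 37. Among all 8959 genes tested it lay wholly below for 3533 and wholly above for 4726, so the 34 is a description. The summed level of the group was 14024 CPM in iWAT and 8794 in iBAT, of which the 16 glycolytic enzymes contributed 10240 and 7139. The other 21 genes summed to 3783 in iWAT and 1655 in iBAT, a 2.29-fold lower level, whereas the glycolytic sum was 1.43-fold lower.

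**Figure D1:**
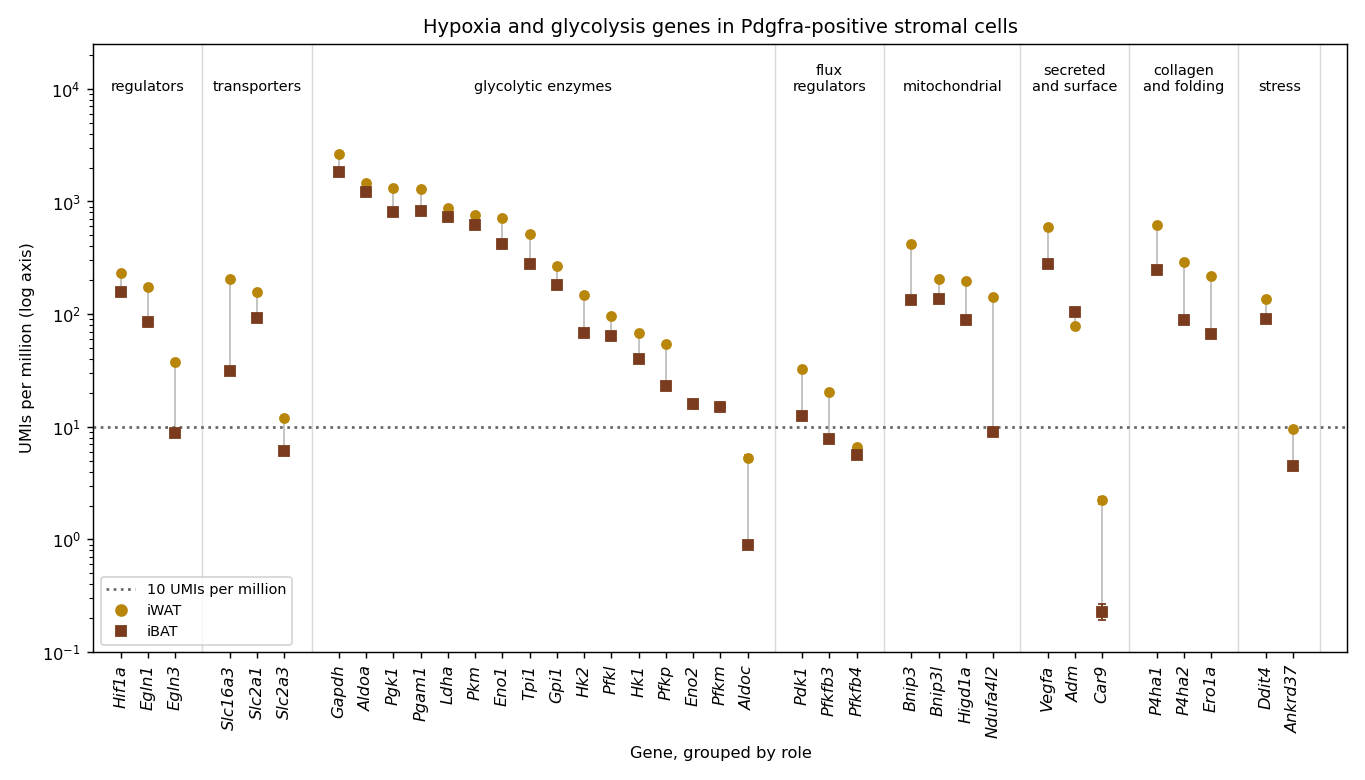
Level of each of the 37 genes in CPM (log axis) in stromal cells of iWAT (circles) and iBAT (squares), grouped by role and ordered by the iWAT level. Error bars are 95% Poisson intervals, mostly smaller than the symbols, and the dotted line marks 10 CPM. The iBAT symbol lies below the iWAT symbol for every gene but Adm, where it lies above, and Eno2 and Pfkm, where the symbols coincide at this scaling.

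The promoters were read for the ACGTG motif, at which hypoxia-inducible factors bind. Windows of the 250 bases before the start of the canonical transcript were taken from GRCm39 with the GENCODE M39 annotation and searched on both strands. Such windows existed for all 37 genes, and 16 of them (43.2%) held ACGTG at least once, compared with 22.5% of 8650 protein-coding genes tested and 17.0% of 21722 protein-coding genes in all. Among the 14 genes that were 2-fold or more lower in iBAT, 7 held the motif, and among the other 23 genes of the group 9 (39.1%) did. Of all 369 protein-coding genes 2-fold or more lower in iBAT, 22.8% did. The related motif GCGTG was found in 43.2% of the group and in 43.8% of tested genes. The median G and C content of the windows was 59.6% in the group and 57.6% over tested genes. The palindrome CACGTG, which is also the E-box bound by other factors, counts once as a match of ACGTG.

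The windows of 3 genes with the motif and of the gene with the largest depot difference are shown, with ACGTG or its reverse complement in capitals. Egln3 lies at chr12:54250674-54250923 (minus strand), Pfkp at chr13:6698971-6699220 (minus strand), Pgk1 at chrX:105230456-105230705 (plus strand) and Ndufa4l2 at chr10:127350568-127350817 (plus strand). Each is printed 5′ to 3′ toward the start site, and none overlaps an annotated exon.
Egln3: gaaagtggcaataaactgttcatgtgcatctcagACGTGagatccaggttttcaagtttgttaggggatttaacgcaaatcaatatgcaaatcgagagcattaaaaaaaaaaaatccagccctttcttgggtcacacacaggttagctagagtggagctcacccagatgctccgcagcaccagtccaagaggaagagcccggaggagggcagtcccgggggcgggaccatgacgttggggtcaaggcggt
Pfkp: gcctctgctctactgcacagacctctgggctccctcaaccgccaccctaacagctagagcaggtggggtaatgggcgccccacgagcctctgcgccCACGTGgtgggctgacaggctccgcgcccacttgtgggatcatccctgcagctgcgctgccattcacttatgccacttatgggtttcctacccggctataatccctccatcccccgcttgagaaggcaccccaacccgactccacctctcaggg
Pgk1: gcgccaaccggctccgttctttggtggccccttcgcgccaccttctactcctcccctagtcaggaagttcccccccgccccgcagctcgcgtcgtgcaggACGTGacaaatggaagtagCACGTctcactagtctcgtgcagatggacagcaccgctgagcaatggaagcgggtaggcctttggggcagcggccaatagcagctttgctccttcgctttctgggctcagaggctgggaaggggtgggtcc
Ndufa4l2: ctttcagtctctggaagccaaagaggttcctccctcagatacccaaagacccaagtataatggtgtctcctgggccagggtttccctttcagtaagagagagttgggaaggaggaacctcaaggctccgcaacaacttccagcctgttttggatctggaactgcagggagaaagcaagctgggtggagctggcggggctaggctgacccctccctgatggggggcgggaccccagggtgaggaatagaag

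For 5 further genes the 30 bases around the match nearest to the start site are shown, since their windows touch exons of other transcripts. They lie at chr7:138511326-138511355 for Bnip3, chr11:53991659-53991688 for P4ha2, chr14:45556076-45556105 for Ero1a, chr6:82751471-82751500 for Hk2 and chr7:46495181-46495210 for Ldha, and capitals again mark the motif.
Bnip3: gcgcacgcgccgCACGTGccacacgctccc
P4ha2: gtgtgcatcgcatACGTGcagcgcgtggcg
Ero1a: gcgcgcgccgctgCACGTccgcaggggagg
Hk2: caatgagcacatcCACGTcactgtccgggg
Ldha: ACGTGggttcccgCACGTccgctgggctcc

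The match of Bnip3 began 89 bases before the start site, that of P4ha2 78, that of Ero1a 56, that of Hk2 35 and that of Ldha 69. Ldha held 3 separate matches, Hk2 and Pgk1 held 2 each, and the remaining 13 genes with the motif held 1. The window of Ndufa4l2 held no match, and neither did those of Slc16a3, Vegfa and Car9. No match says only that these letters are missing from these 250 bases. A match is a description of the sequence and not evidence of a bound site.

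The 3 genes of the oxygen sensor were all lower in iBAT. Hif1a (chromosome 12, 73948149 to 73996321), the oxygen-labile subunit, was at 233 CPM in iWAT and 157 in iBAT. Egln1, the main prolyl hydroxylase acting on Hif1a, was at 174 and 85.4, a log2 ratio of -1.02. Egln3 (chromosome 12, 54225767 to 54250673), a hydroxylase that is itself induced by hypoxia, was at 37.7 and 8.88, a 4.24-fold lower level (95% interval 4.11 to 4.37). The Hif1a difference was thus the smallest of the 3, with a log2 ratio of -0.56.

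Among the transporters, the lactate exporter stood apart. Slc16a3 (chromosome 11, 120838846 to 120851694), which encodes MCT4 and carries lactate out of glycolytic cells, was at 205 CPM in iWAT and 31.4 in iBAT, 6.53-fold lower (6.43 to 6.63). The ubiquitous glucose transporter Slc2a1 was at 156 and 93.0, and the high-affinity transporter Slc2a3 at 11.9 and 6.16. Neither glucose transporter reached a 2-fold difference.

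The glycolytic enzymes showed smaller ratios than the rest of the group, with a median log2 ratio of -0.63 over the 16 genes against -1.14 over the other 21. Isozymes of the same step differed among themselves. Hk2, the inducible hexokinase, was at 147 CPM in iWAT and 67.4 in iBAT, while the constitutive Hk1 was at 67.5 and 40.4. Of the phosphofructokinases, the platelet form Pfkp was at 54.1 and 22.9 and the liver form Pfkl at 97.0 and 63.8. The muscle form Pfkm was at 15.3 and 14.9, and the interval of its log2 ratio (-0.09 to 0.01) included equality. Hk2 and Pfkp were the only tested enzymes of the pathway at 2-fold or more.

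Most of the remaining enzymes were lower in iBAT by less than 2-fold. Gapdh (chromosome 6, 125135289 to 125143518) was at 2628 CPM in iWAT and 1830 in iBAT, a log2 ratio of -0.52. Tpi1, triose phosphate isomerase, was at 515 and 281, and the X-linked Pgk1 at 1310 and 807. Pgam1 was at 1294 and 827, Eno1 at 718 and 423, and Gpi1, which acts further up, at 265 and 183. These log2 ratios ran from -0.87 for Tpi1 to -0.52 for Gapdh. The aldolase Aldoa was at 1471 and 1223, pyruvate kinase Pkm at 766 and 615, and lactate dehydrogenase Ldha at 873 and 724, with log2 ratios of -0.27, -0.32 and -0.27. Eno2, the neuronal enolase, was at 16.0 in both libraries, and which depot was higher changed with the scaling. Aldoc, the brain aldolase, was below the level required for a call, at 5.30 and 0.897.

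Sequence shared with other genes limits 3 of these values. Of the 75-base words in the last 500 bases of the transcript, 84.0% recur in other annotated genes for Gapdh, 100% for Aldoa and 62.0% for Eno1. The gene shared with Aldoa is not listed in the files. Of the others, the files list Gm45064 beside Gapdh, at 0.146 CPM in iWAT and 0.0317 in iBAT, and Eno1b beside Eno1, at 67.8 and 48.2. How reads that fit more than 1 gene were assigned is not given in the sources used here. For Pgk1 the shared part was 1.88% and for Pfkm 0.469%, and it was 0% for the other 32 genes.

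The group's regulators that set the flux into and out of glycolysis were lower in iBAT. Pfkfb3, which makes the activator of phosphofructokinase, was at 20.4 CPM in iWAT and 7.72 in iBAT, a log2 ratio of -1.40. Pdk1, a kinase that keeps pyruvate out of the mitochondrial oxidation step, was at 32.9 and 12.6, a log2 ratio of -1.38. Outside the group, the other kinases of this step had the higher level in iBAT. Pdk3 was at 47.6 CPM in iWAT and 57.0 in iBAT. Pdk2, at 5.35 and 7.49, and Pdk4, at 1.16 and 4.94, were under 10 CPM in both libraries. Pfkfb4, an isozyme of Pfkfb3, was below the level required for a call in both libraries, at 6.59 and 5.61.

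The mitochondrial genes held the largest difference of the group. Ndufa4l2 (chromosome 10, 127350818 to 127353038), a subunit-like protein induced by Hif1a that lowers complex I activity, was at 141 CPM in iWAT and 9.02 in iBAT. This is a 15.6-fold lower level (15.2 to 16.1). Bnip3 (chromosome 7, 138490690 to 138511253), a receptor for the removal of mitochondria, was at 417 and 134, and its relative Bnip3l at 204 and 135. Higd1a, a hypoxia-induced protein of the respiratory chain, was at 197 and 89.2. Bnip3l was the only gene of the 4 that stayed under 2-fold.

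The secreted and surface genes differed in direction. Vegfa (chromosome 17, 46327919 to 46343309), the main angiogenic growth factor, was at 594 CPM in iWAT and 278 in iBAT, 2.14-fold lower (2.12 to 2.15). Adm (chromosome 7, 110226858 to 110229027), which encodes the vasodilator peptide adrenomedullin, was the only gene with an interval above equality, at 79.1 in iWAT and 104 in iBAT. Car9, the cell surface carbonic anhydrase often used as a hypoxia marker, was below the level required for a call, at 2.22 (656 UMIs) and 0.228 (151 UMIs).

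Collagen hydroxylation and folding genes were uniformly lower in iBAT. P4ha1, the catalytic subunit of collagen prolyl 4-hydroxylase, was at 620 CPM in iWAT and 246 in iBAT. Its isoform P4ha2 was at 291 and 88.8, and the oxidase Ero1a, which supplies disulfide bonds in the endoplasmic reticulum, at 216 and 67.0. All 3 passed 2-fold, with log2 ratios of -1.33, -1.71 and -1.69. The summed level of the 10 mesenchymal markers, of which 5 are collagen genes, was also lower in iBAT stromal cells, at 13121 against 30037 CPM, and its part in this result was not tested. Of the stress genes, Ddit4, an inhibitor of mTORC1, was at 135 and 89.7, and Ankrd37 at 9.64 and 4.47.

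**Figure D2:**
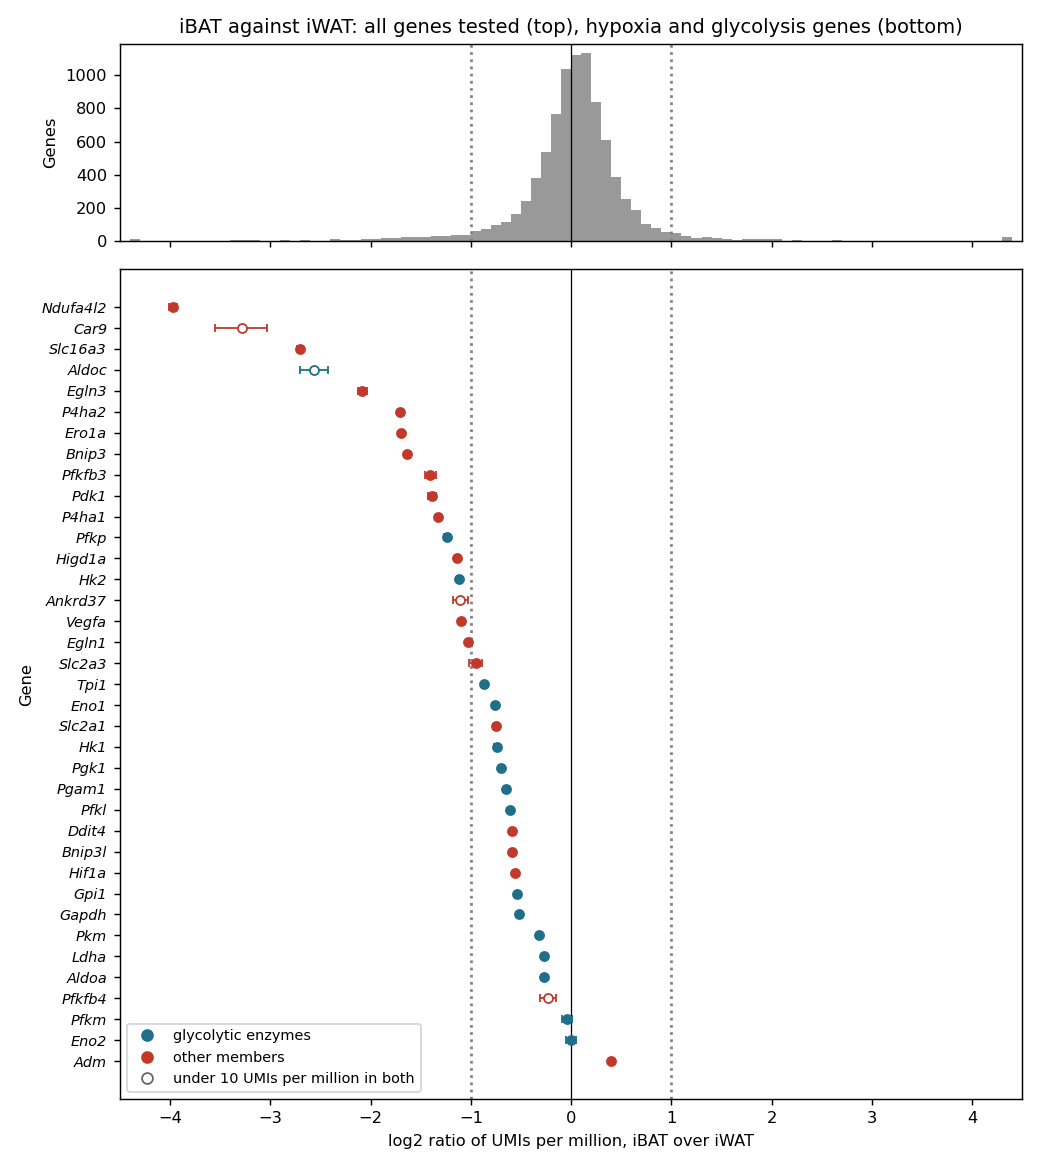
Log2 ratio of CPM, iBAT over iWAT, in stromal cells. The upper panel is a histogram of all 8959 genes tested, with values beyond the axis drawn at its ends. The lower panel shows the 37 genes with 95% intervals, glycolytic enzymes in blue and other genes in red, open where both libraries were under 10 CPM. Dotted lines mark 2-fold. The group is spread from -3.97 for Ndufa4l2 to 0.40 for Adm, with most genes left of the bulk of all genes.

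The rest of the pathway was described with 94 further genes, of which 93 were listed in both libraries and 69 tested. These lists too were chosen with earlier results of these data known, and their counts are descriptions. Among 35 tested targets of hypoxia-inducible factors outside the group, 27 were lower in iBAT, against 43.2% of all genes tested, and 8 of them by 2-fold or more, against 4.41%, with a median log2 ratio of -0.48. Of the 8, Pgf, Stc2 and Edn1 reached 10 CPM in iWAT only. Among them were Pgf, a relative of Vegfa, at 11.9 CPM in iWAT and 1.66 in iBAT, the collagen crosslinker Loxl2 at 842 and 209, the secreted glycoprotein Stc2 at 34.4 and 8.13, the vasoconstrictor precursor Edn1 at 18.3 and 6.11, and Ak4, Fam162a and Pgm1 with log2 ratios from -1.41 to -1.09. Angptl4, a lipase inhibitor that is a target both of hypoxia and of fatty acid receptors, had the higher level in iBAT, at 36.3 and 52.8, as did Dapk1 at 29.1 and 51.6. Hmox1 was nearly level, at 271 and 263.

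Of 13 components of the oxygen-sensing machinery tested outside the group, 4 were lower in iBAT, against 43.2% of all genes, and 9 higher, with a median log2 ratio of 0.27 against 0.05 for all genes. Epas1, which encodes the second oxygen-labile subunit HIF-2 alpha, was at 10.1 CPM in iWAT and 12.4 in iBAT, and the partner Arnt at 50.7 and 46.4. Vhl was at 34.9 and 22.6, and Egln2, a hydroxylase that hypoxia does not induce, at 16.0 and 24.9. The only difference of 2-fold or more was in Arnt2, a second partner subunit, at 3.95 and 10.2, which reached 10 CPM in iBAT only.

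The depot difference was then followed through cells outside the stromal set. The other classes were defined by UMIs of at least 3 markers of the class. Among 7520 iWAT and 1107 iBAT cells with no class marker set and no Pdgfra UMI, 31 of 32 tested genes were lower in iBAT and 12 by 2-fold or more, against 4.54% of all genes. Among 173 and 287 immune-gated cells, 29 of 33 were lower and 9 by 2-fold or more, against 7.31%. Among 66 and 783 Schwann-gated cells these counts were 25 of 32 and 6, against 6.28%. Of these 12, 9 and 6 genes, 4, 2 and 3 reached 10 CPM in iWAT only, Ndufa4l2 in each class, so the counts are descriptions. Bnip3 had log2 ratios of -1.94, -1.12 and -1.15 in these classes, and Ndufa4l2 of -3.69, -3.65 and -3.82. Among 718 and 2025 mural-gated cells 32 of 33 genes were lower and 12 by 2-fold or more, against 4.21%, of which Egln3, Pfkfb3 and Slc2a3 reached 10 CPM in iWAT only. Ndufa4l2 had a log2 ratio of -2.32 there, the smallest difference among these classes, and Adm was higher in iBAT, at 40.7 and 94.2 CPM. In the endothelial gates (51 and 251 cells) 26 of 34 genes were lower in iBAT, 10 by 2-fold or more, against 8.66% of all genes. There 3 genes were 2-fold or more higher in iBAT. How many of these calls reached 10 CPM in a single depot was not counted. Bnip3 had a log2 ratio of only -0.27 between these gates, and the iWAT cells were not read as an endothelial class. In none of these classes was the share of all genes lower by any amount counted. The median log2 ratio of all genes ran from -0.02 in the Schwann to 0.04 in the mural gates. The gates are not free of stromal RNA. The summed level of the mesenchymal markers was 8523 CPM in the immune gate of iWAT and 4886 in that of iBAT. It was 19386 and 14144 in the Schwann gates and 31967 and 21092 in the mural gates. In the cells with no class and no Pdgfra UMI it was 27840 and 15720, against 30037 and 13121 in stromal cells. By these markers the no-class and mural-gated cells resemble stromal cells, so their counts are not read as other cell types. The Schwann gate of iBAT also reached the stromal level of these markers, though its Schwann markers summed to 1318 CPM against 11.2 in stromal cells. The Schwann counts are read with that limit. The part of stromal RNA in the differences was not tested.

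Epithelial-gated cells, which were abundant in iWAT only (5156 cells), had lower levels of the group than iWAT stromal cells. Of 35 genes tested, 11 were lower by 2-fold or more, against 7.81% of all genes, and 2 were higher, where the share of all genes was 8.46%. With 4 or 2 markers required in place of 3, the lower genes numbered 18 and 2. The summed level was 8385 CPM against 14024. P4ha1 was at 208 in epithelial-gated and 620 in stromal cells, Bnip3 at 147 and 417, and Ndufa4l2 at 33.5 and 141. In contrast Car9 was at 13.1 (12.2 to 14.0) and 2.22, and Aldoc at 22.3 (21.2 to 23.5) and 5.30. These were the 2 higher genes, and neither reached 10 CPM in stromal cells, so their number is not set against the share of all genes. Ddit4 stood at 261 and 135, just under 2-fold. These cells had a median of 11883 UMIs, a median mitochondrial share of 9.33% against 5.44%, and 7712 CPM of mesenchymal markers.

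Single genes differed between endothelial-gated and stromal cells of iBAT. Of 32 genes tested in 251 cells, 6 were higher by 2-fold or more, against 7.48% of all genes, and none was lower, against 4.36%. Gates of 4 and 2 markers gave 9 and 1 higher genes, and 3 and 0 lower ones. Of the 6, Egln3, Ankrd37 and Pfkfb3 were under 10 CPM in stromal cells and passed that level only through this gate, so nothing is read from the count of higher genes. Egln3 was at 93.9 CPM (86.6 to 102) against 8.88 in stromal cells, Ankrd37 at 22.4 against 4.47, Adm at 242 against 104, Slc16a3 at 69.8 against 31.4, Hk1 at 98.5 against 40.4 and Pfkfb3 at 18.3 against 7.72. Bnip3 came close, at 268 against 134. Vegfa, which endothelial cells receive as a signal, had the lower value, at 141 against 278. The 9 endothelial markers summed to 4122 CPM in this gate and to 12.1 in stromal cells. In iWAT only 51 cells passed the endothelial gate, with 737 CPM of the endothelial and 24800 of the mesenchymal markers, and they were not read as an endothelial class.

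Single genes of other classes are described next. In the muscle and adipogenic gates of iBAT the counts at 3 markers lay near the shares of all genes. So did the lower count of the iBAT immune gate. In 329 muscle-gated cells Egln3 was at 124 CPM (116 to 132) and Pfkm, the muscle phosphofructokinase, at 106 (98.5 to 113) against 14.9 in stromal cells. These were the 2 of 30 genes tested at 2-fold or more above stromal cells, against 8.01% of all genes, and P4ha2 and Ddit4 were the 2 at 2-fold or more below, against 4.92%. Lower genes numbered 8 with 4 markers required and 0 with 2. In 77 adipogenic-gated cells Bnip3 was at 390 against 134, Ddit4 at 210 against 89.7 and Pfkfb3 at 19.7 against 7.72, 3 of 30 genes tested against a background of 8.71%, while Adm, Slc16a3 and Eno2 were 2-fold or more lower, against 8.99%. Ndufa4l2 was at 29.4 (28.1 to 30.8) in 2025 mural-gated cells, 3.26-fold the stromal level. It was the only gene of 30 at 2-fold or more, but it was under 10 CPM in stromal cells and counted only through this gate, so its number is not read against the shares of all genes, 0.949% higher and 0.24% lower. Of the mural-gated cells 89.4% had a Pdgfra UMI, so most cells of this gate are also Pdgfra-positive. In the Schwann gates 24 of 34 genes in iWAT and 8 of 31 in iBAT were lower than in stromal cells by 2-fold or more, against 11.5% and 7.48%, while 3 were higher in each, against 13.3% and 7%, Slc2a3 and Pfkfb4 in both. Slc2a3 was at 24.7 CPM in the iWAT and 14.8 in the iBAT Schwann gate, and Pfkfb4 at 24.7 and 13.6. In the immune gates 7 of 34 genes in iWAT and 4 of 30 in iBAT were lower, against 11.5% and 11%, and 1 was higher in each, against 12.6% and 9.45%, namely Aldoc at 16.6 in iWAT and Pfkfb3 at 16.4 in iBAT. Egln3 in the muscle gate, Pfkfb3 in the adipogenic and the iBAT immune gate, Aldoc in the iWAT immune gate, Slc2a3 in the iBAT and Pfkfb4 in both Schwann gates likewise were under 10 CPM in the stromal cells they were set against, so the higher counts of these gates are descriptions. In the other direction, 2 of the 11 lower genes of the epithelial gate, 1 of the 7 of the iWAT immune gate and 2 in each Schwann gate reached that level in stromal cells only, as did Eno2 in the adipogenic comparison. With 2 markers required, no gene was 2-fold or more lower in any Schwann or immune gate, while with 4 the iWAT counts were 25 and 11.

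**Figure D3:**
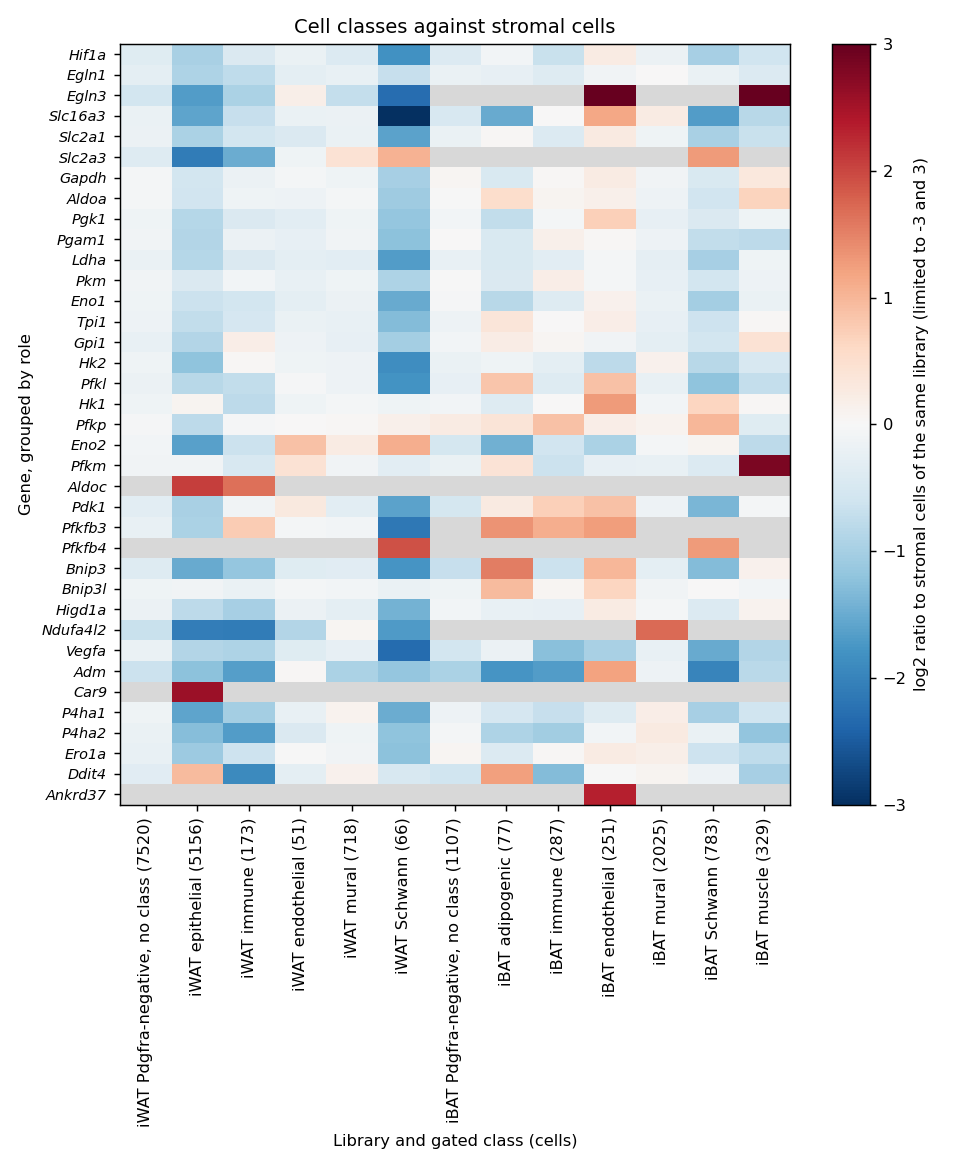
Log2 ratio of CPM in each gated class over stromal cells of the same library, for the 37 genes. Columns give library, class and number of cells, colour runs from blue (lower) to red (higher) and is limited at -3 and 3, and grey marks genes under 10 CPM in both. Dark red squares stand out for Egln3 in endothelial and muscle gates, Pfkm in the muscle gate and Car9 and Aldoc in the epithelial gate.

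Variation between stromal cells of 1 library was examined after each cell was thinned to 10000 UMIs, which left out 1627 shallower cells in iWAT and 0 in iBAT. Over the 23 genes of the group at 50 CPM or more in both libraries, the median ratio of variance to mean was 1.80 in iWAT and 1.51 in iBAT, against 1.18 and 1.17 over 3113 genes at that level. A ratio of 1 is what random sampling alone would give. Of all 37 genes, the most variable in iWAT were Ndufa4l2 with a ratio of 3.47, Bnip3 with 3.30 and Vegfa with 3.18. In iBAT Adm had the highest ratio, 3.53, and the ratio of Ndufa4l2 was 1.97. Ero1a differed most between the depots, with 2.84 in iWAT and 1.18 in iBAT. The ratio depends on the level as well, which was higher in iWAT for most of these genes.

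The genes varied together across cells. Among the 23 genes, all 253 pairs had a positive Spearman correlation in iWAT, with a median of 0.17, against 0.00 over all pairs of the 3113 genes. In iBAT 240 of the 253 pairs were positive, with a median of 0.07. Correlations above 0.1 were found in 79.4% of the pairs in iWAT and 38.3% in iBAT, against 1.56% and 2.02% of all pairs. The set of all pairs was not matched to the group on level, and correlations depend on level. Pairs of glycolytic enzymes were alike in both depots, with medians of 0.23 and 0.23, while pairs among the other genes had medians of 0.16 and 0.05. The points are cells of 1 library that share their preparation and mix of treatments, and these values are descriptions.

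The pairs of Bnip3 with Ndufa4l2, at 0.47, and with Pgk1, at 0.46, had the highest correlations of iWAT, followed by Gapdh with Pgk1 at 0.43. Bnip3 had 0.42 with Gapdh and 0.41 with Ldha. Ndufa4l2, too scarce in iBAT to be among the 23, had 0.41 with P4ha2 and 0.38 with Pgk1 in iWAT, while in iBAT its highest value was 0.13, again with Bnip3. The highest pairs of iBAT were within glycolysis, Aldoa with Pgk1 at 0.38 and Gapdh with Pgk1 at 0.38. The lowest pair of iBAT was Adm with Ddit4, at -0.05. Hk2 had low values in both depots, 0.06 in iWAT and 0.09 in iBAT with the mean of the other glycolytic enzymes.

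Lower counts lower a correlation, so the iWAT counts of each gene were also thinned to the iBAT mean where that was lower. At matched means the median over pairs was 0.11 in iWAT and 0.07 in iBAT. Pairs among the non-glycolytic genes had medians of 0.10 and 0.05. Pairs of glycolytic enzymes had medians of 0.18 in iWAT and 0.23 in iBAT, while before matching both stood at 0.23.

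**Figure D4:**
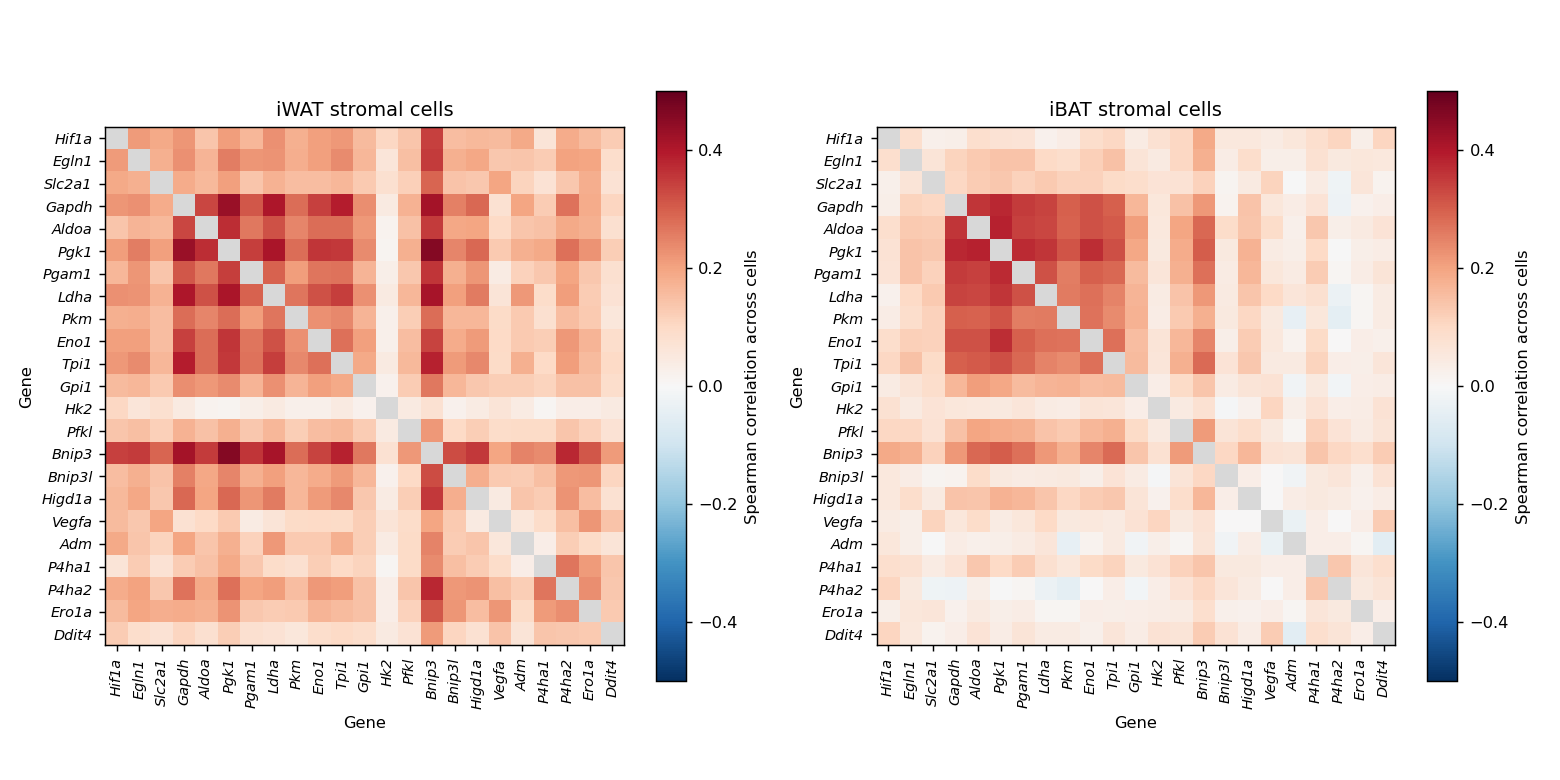
Spearman correlation across stromal cells, thinned to 10000 UMIs each, between 23 genes of the group in iWAT (left, 14258 cells) and iBAT (right, 23201 cells). Red is positive, blue negative and the diagonal is grey. The glycolytic block is red in both panels, and the Bnip3 row is red across the panel in iWAT.

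A score per cell, the mean of standardised log counts, was formed over 14 non-glycolytic genes and over 15 glycolytic enzymes at 10 CPM or more in both libraries. The scores correlated at 0.63 in iWAT and 0.40 in iBAT. Within the first score, Bnip3 followed the mean of the others best, at 0.64 in iWAT and 0.36 in iBAT, and Adm least in iBAT, at 0.04. Outside the group, 3090 genes were ranked by their likeness to the first score in both depots. The top 10 were Fam162a, Plod2, Gys1, Mif and Pgm1, which are on the wider list of hypoxia targets, and Fstl1, Col3a1, Hsp90b1, Il6st and Adamts5. The share of that list among the 3090 was not counted, so its part in the top 10 is a description. Fam162a had a correlation of 0.39 in iWAT and 0.24 in iBAT, and Plod2, a collagen lysyl hydroxylase, of 0.39 and 0.20. The 10 most like the glycolytic score were Mif at 0.32 and 0.35 and Fam162a at 0.39 and 0.30, followed by Anxa2, Lgals3, Prelid1, Emp1, Spp1, Ugdh, Mt2 and Actb.

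The group was next described by proliferation. Cells with 5 or more UMIs of 6 cycling genes were compared with cells with none, and a difference of 1.25-fold or more was counted. In iWAT 6 of 34 genes tested were lower in cycling cells, against 11.2% of all genes, and 1 was higher, against 19.3%. In iBAT 6 of 31 were lower, against 19.5%, and 2 were higher, against 18.5%. Among the lower genes, Ankrd37 in iWAT and Ndufa4l2 in iBAT reached 10 CPM in non-cycling cells only, which leaves 5 in each depot. At this cut the lower counts lie near the shares of all genes and are not read as a relation of the group. With 10 or more UMIs required, lower genes numbered 9 of 34 in iWAT, against 12.3% of all genes. In iBAT they then numbered 5 of 31, against 20.9%, so the reading of iWAT depends on the cut. Ndufa4l2 was at 191 CPM in non-cycling and 122 in cycling cells of iWAT, and at 12.4 and 7.17 in iBAT. Eno2 was at 21.6 and 12.5 in iWAT and at 22.5 and 12.0 in iBAT. Egln3 was the gene that was higher in cycling cells of both depots, at 34.9 and 44.2 in iWAT and 6.59 and 10.4 in iBAT, where it reached 10 CPM only in cycling cells.

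A higher share of mitochondrial UMIs went with lower levels of part of the group. Cells in the highest quartile of that share were compared with cells in the lowest, which in iWAT meant at least 6.60% against at most 4.46% and in iBAT at least 7.15% against at most 5.74%. In iWAT 17 of 34 genes were lower by 1.25-fold or more in the high quartile, against 27.3% of all genes, and 1 was higher, against 5.98%. In iBAT 11 of 31 were lower, against 9.68%, and 1 was higher, against 6.49%. Of these 11, Egln3 and Ndufa4l2 reached 10 CPM at the low end only, and the other 9 did so at both ends. The median log2 ratio of high over low was -0.33 in iWAT and -0.23 in iBAT, against -0.16 and -0.06 over all genes. Egln3 was at 48.7 and 25.4 CPM at the low and high end in iWAT, Adm at 102 and 54.3, Hif1a at 287 and 176 and Pdk1 at 40.5 and 24.9. In iBAT Slc16a3 was at 37.7 and 23.1 and Bnip3 at 156 and 111. Eno2 was the gene with the higher level at the high end, at 12.6 and 20.2 in iWAT and 14.6 and 19.8 in iBAT. The depth of the high quartile before thinning was lower, with a median of 17186 against 19426 UMIs in iWAT and 25708 against 29055 in iBAT.

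The contractile axis was read from smooth muscle actin and its partners. Cells in the highest quartile of summed Acta2, Tagln, Cnn1 and Myl9 UMIs were set against the lowest. In iWAT 8 of 34 genes were lower at the high end, against 25.4% of all genes, and none was higher, against 5.83%. Egln3 was at 53.3 CPM at the low and 30.9 at the high end there, and Ddit4 at 162 and 118. In iBAT 3 of 30 were lower, against 20.2%, and 3 were higher, against 8.01%. Ankrd37 among the lower genes of iWAT and Ndufa4l2 among the higher genes of iBAT reached 10 CPM only at the end where they were high, which leaves 7 and 2. Adm was at 69.0 CPM at the low and 137 at the high end in iBAT, and at 89.2 and 75.8 in iWAT. P4ha2 was at 66.0 and 117 in iBAT, and at 278 and 315 in iWAT. Vegfa was lower at the high end in both, at 706 and 505 in iWAT and 315 and 235 in iBAT, and so was Gpi1, at 310.1 and 241 and at 202 and 157. The iWAT count lay near the share of all genes, and differences between the depots along this axis were not tested.

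**Figure D5:**
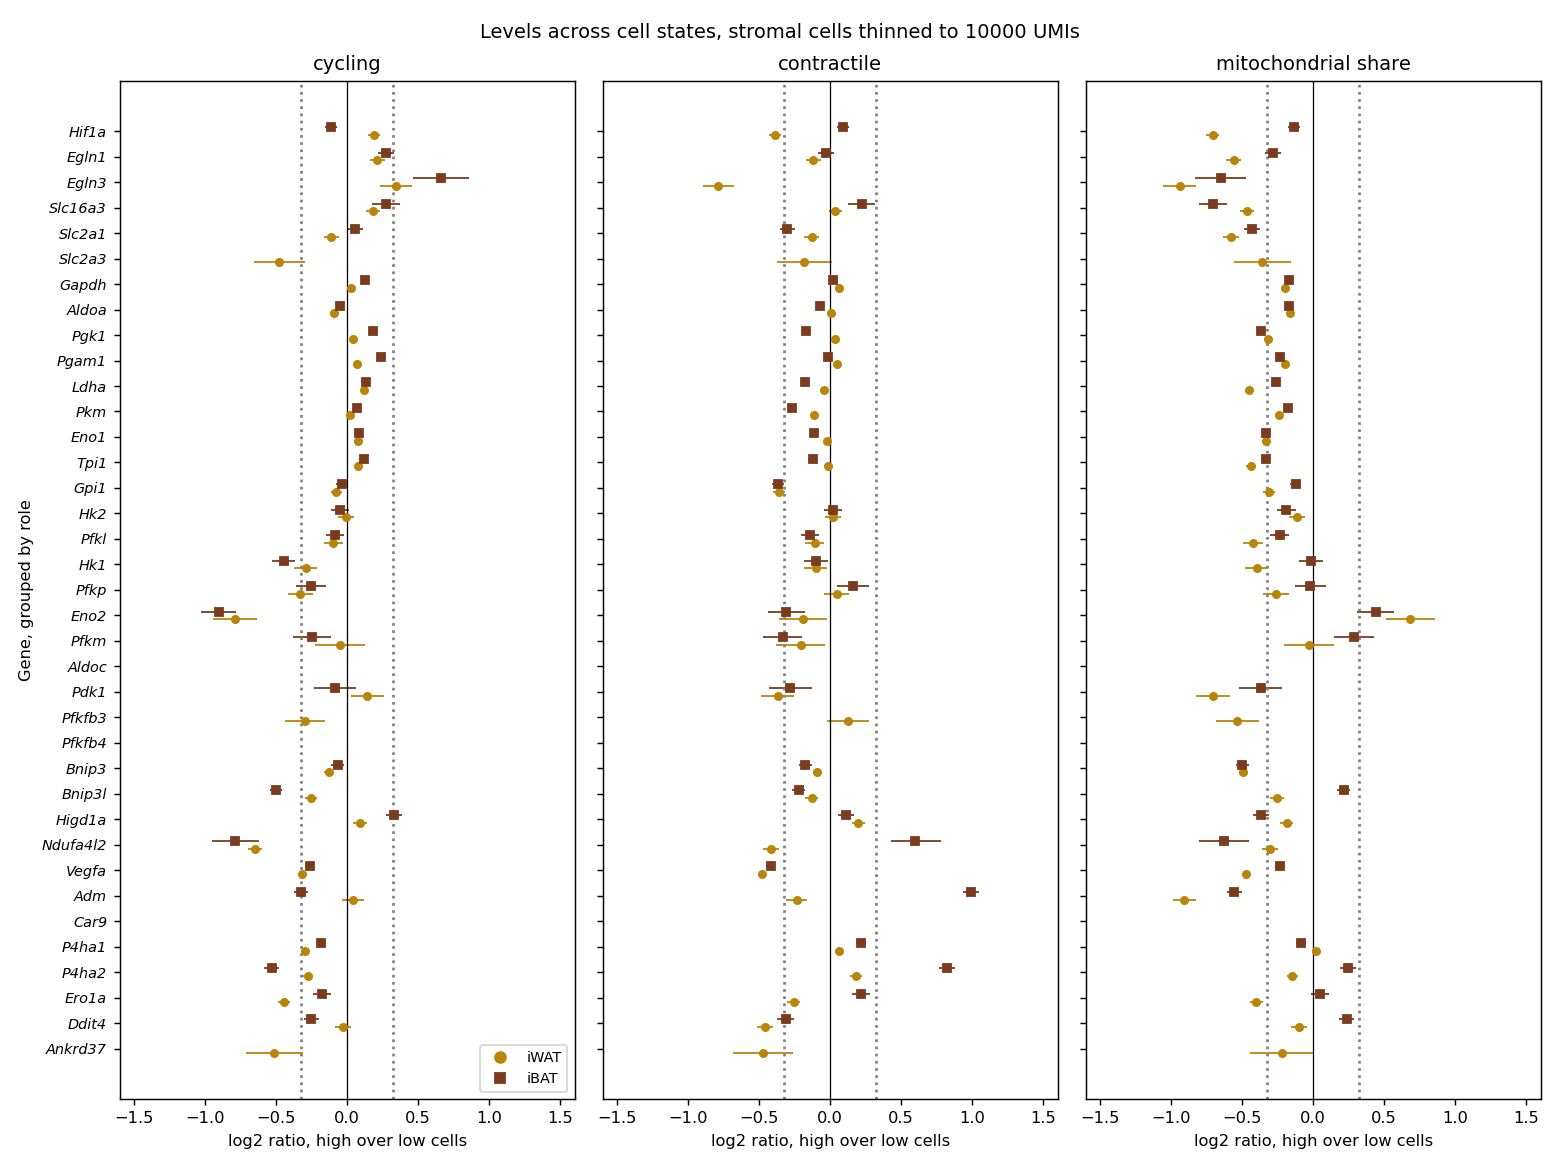
Log2 ratio of each gene between the high and low end of 3 cell states in stromal cells thinned to 10000 UMIs, for iWAT (circles) and iBAT (squares), with 95% intervals. The states are cycling, contractile and mitochondrial share, and dotted lines mark 1.25-fold. Most points of the mitochondrial panel lie left of zero, and Adm, P4ha2 and Ndufa4l2 lie to the right for iBAT in the contractile panel.

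The depot ratio was also taken at each end of these states, in the cells of the stromal comparison. In cells with no cycling UMI 16 of 34 genes tested were lower in iBAT by 2-fold or more, against 4.65% of all genes, and in cycling cells 13 of 33, against 4.53%. At the low and high end of the contractile axis the counts were 15 of 34 and 14 of 33, against 4.76% and 4.31%. For the mitochondrial share they were 15 of 34 and 12 of 33, against 4.59% and 4.35%. In each of these counts 2 to 4 genes, among them Pfkfb3, Egln3, Slc2a3, Ndufa4l2 and Ankrd37, reached 10 CPM in iWAT only, and 9 to 13 did so in both depots. The median log2 ratio of iBAT over iWAT ran from -0.92 in cells of low mitochondrial share to -0.72 in cells of high mitochondrial share. It was -0.89 in non-cycling and -0.84 in cycling cells. Over all genes the medians lay between 0.02 and 0.11.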

How the data were processed

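The authors made 1 BD Rhapsody whole-transcriptome library per depot and deposited its raw counts of UMIs for every gene in every cell, not normalized. Per the labels' processing notes, the genome build was mm39 and Seurat 5.0.0 was used. The version of the cloud pipeline, the annotation and the handling of reads that fit several genes are not given in the sources used here. The paper's methods name vehicle, FGF1 and FGF2 only for this assay, while the labels list FGF8 too.

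Cells with more than 200 and fewer than 7500 genes and under 30% mitochondrial UMIs were kept. A cell entered a class with UMIs of at least 3 class markers, cells of several classes were set aside as mixed, and classes under 50 cells were not read. Stromal cells had at least 1 Pdgfra UMI and no other class. Counts were summed over the cells of a library and scaled to CPM (UMIs of a gene per 1000000), with exact Poisson intervals for levels and exact conditional binomial intervals for ratios, both at 95%. A gene was tested with at least 10 CPM in at least 1 library, and a difference of 2-fold was called. UMIs limit duplicate reads, but the intervals cover counting error only.

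Correlations and cell states used cells thinned at random to 10000 UMIs. All 37 genes are named, along with 2-fold different or central genes of the wider pathway list and the 10 genes most like each score. One gene of the wider list is not reported here. The genes, markers and lists were chosen with earlier results of these data known. With 0.08 as the expected doublet rate, Scrublet in scanpy 1.11.5 called under 0.5% of iBAT cells, so its calls were not used and doublets were kept. Alternatives covered scaling (among them TMM of edgeR 4.0.16), filters, cell sets, thinning and the class gates. Python 3.11.15, numpy 2.4.6 and scipy 1.17.1 were used, and the routines were tested on simulated data.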

Additional observations from a re-analysis of the deposited data

Results flagged for a closer look

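Ndufa4l2 differed in opposite directions along the contractile axis of the depots. From the lowest to the highest quartile of contractile UMIs it went from 178 to 133 CPM in iWAT, a log2 ratio of -0.42 (-0.47 to -0.36), and from 7.62 to 11.6 in iBAT, a log2 ratio of 0.60 (0.42 to 0.78). In iBAT Ndufa4l2 reached 10 CPM only at the high end, so it was counted there through the end where it is high. Each depot had 1 library, and the difference between the depots was not tested.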

How the results depend on the processing

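The depot difference kept its direction under all 11 alternatives run. Genes of the group 2-fold or more lower in iBAT numbered 11 to 17 against 14, none was 2-fold or more higher under any of them, and the median log2 ratio ran from -0.94 to -0.69. Scaling by the median of ratios shifted all log2 ratios by -0.05 and TMM by -0.03, which placed Eno2 on the lower side. No called gene changed sign. The summed level of the group in iWAT, 14024 CPM, was 12849 over all kept cells, 14564 with at least 3 Pdgfra UMIs, 14114 with the other cell filter and 14187 without the 8% of cells with the most UMIs. In iBAT, 8794, it was 8661, 8887 and 8762 over all kept cells, with 3 Pdgfra UMIs and without the cells with the most UMIs. The median correlation over pairs in iWAT, 0.17, was 0.10 at 5000 UMIs, 0.20 in cells with no cycling UMI and 0.11 at matched means, and in iBAT, 0.07, it was 0.045 at 5000 UMIs. Fewer counts per cell lower a correlation by construction. Counts by class depended on the gate. With 4 markers in place of 3, the genes 2-fold or more lower than in stromal cells went from 11 to 18 in epithelial-gated and 7 to 11 in immune-gated iWAT cells, from 0 to 3 in endothelial-gated and 2 to 8 in muscle-gated iBAT cells, and the higher ones in immune-gated iBAT cells from 1 to 2. With 2 markers, lower genes went from 11 to 2 in the epithelial gate of iWAT and to 0 in the immune (7) and Schwann (24) gates of iWAT and the immune (4), Schwann (8), muscle (2) and adipogenic (3) gates of iBAT. Higher genes then went from 2 to 1 in the epithelial and 3 to 1 in the Schwann gate of iWAT and 6 to 1 in the endothelial gate of iBAT, and to 0 in the immune gates (1 each) and in the Schwann (3), adipogenic (3) and mural (1) gates of iBAT, while the 2 in the muscle gate stayed 2 in number. Without the 8% of cells with the most UMIs, lower genes were 11 in the immune gate of iWAT and 2 in the endothelial gate of iBAT, and higher ones 2 in the immune gate of iBAT. The cause was not tested. At 2 markers most gates held more cells, such as 710 against 251 endothelial cells, but the Schwann gate of iBAT held 361 against 783. Cells that reached 2 markers of a further class were then set aside as mixed. A gate of 2 markers is thus not simply a wider form of the same class. State counts stayed within 1.5-fold, although the lower genes of cycling iWAT cells went from 6 to 9 at the cut of 10 UMIs. Leaving out the 8% of cells with the most UMIs, matching means and the set of cells with or without Pdgfra were chosen after the data were seen. Leaving out Scrublet doublets gave no value, since under 0.5% of iBAT cells were called. No paired analysis was possible because each depot had 1 library. Genes under 10 CPM, such as Car9 with 151 UMIs in iBAT stromal cells, are limited by depth in single cells but not in sums.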

Other observations

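Glycolytic isozymes and neighbouring pathways outside the group were also compared between the depots. Of 11 tested isozymes and pentose phosphate genes, 6 were lower and 5 higher in iBAT and none by 2-fold or more, where 43.2% of all genes tested were lower, 4.41% by 2-fold or more, and 3.66% were 2-fold or more higher. G6pdx, the entry enzyme of the pentose phosphate pathway, was at 47.4 CPM in iWAT and 87.7 in iBAT, and Pgd, which acts after it, at 182 and 218. Ldhb, the lactate dehydrogenase subunit of oxidative tissues, was at 7.73 and 15.1, and the lactate importer Slc16a1 at 38.9 and 45.0. All of these are among the 5 higher genes, with Taldo1 at 147 and 162. The 6 lower genes were Tkt, also of the pentose phosphate pathway, at 176 and 137, Eno1b at 67.8 and 48.2, and Adpgk, Bpgm, Tigar and Slc2a10.

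Genes for the entry of pyruvate into mitochondria had a median log2 ratio of 0.02, against 0.05 for all genes. Of 10 tested, 5 were lower and 5 higher in iBAT, beside the same 43.2% of all genes lower. Pdha1 was at 154 and 171 CPM, the pyruvate carrier subunits Mpc1 and Mpc2 at 31.1 and 34.9 and at 56.4 and 56.0, and Pdp1, the phosphatase that reactivates pyruvate dehydrogenase, at 5.55 and 11.5, the only one at 2-fold or more, reaching 10 CPM in iBAT only.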
